A study of Mus musculus with 6 samples.

Results

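The genes described here are interferon-stimulated genes and their regulators, as measured in mouse liver under a diet that limits cholesterol and a diet that supplies it. A list of 44 such genes was drawn up by name, with no measured value in the rule. Earlier results of these data were known when it was chosen, so its counts beside those of all genes were not tested. Of the 44, 40 had a probe set annotated to that gene alone, out of 19938 genes tested. For genes with several such probe sets the one with the highest mean over all arrays was used. Isg15, Gbp2 and Igtp were present only on probe sets annotated to several genes, and Ifi44 on none that the annotation lists, so no value is given for these 4.

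Type I interferons are secreted alarm proteins that signal through a receptor pair shared by nearly all cells, the kinases Jak1 and Tyk2, and a transcription factor complex that holds Stat2 and Irf9. That complex binds a short DNA element, the interferon-stimulated response element (ISRE), and switches on genes that detect foreign nucleic acid, block viral replication and feed back on the pathway itself. In liver, both hepatocytes and resident macrophages (Kupffer cells) respond to interferon, and many of these genes keep a low baseline without infection.

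Livers came from male C57BL/6 mice, an inbred strain, which the labels give as 6 weeks old with 1 week of acclimatization on the same base chow. The lovastatin/ezetimibe group (arrays LE1 to LE3) ate chow carrying 100 mg lovastatin and 21 mg ezetimibe in each 100 g. Lovastatin inhibits cholesterol synthesis and ezetimibe its uptake from the gut. The cholesterol group (arrays CH1 to CH3) ate the base chow with 1% cholesterol by weight. A chow-only group is described in the labels and is not analysed here, so a difference below cannot be assigned to either diet. Each array measured whole-liver RNA on an Affymetrix Mouse Gene 1.0 ST chip. The labels call the arrays biological replicates without tying them to single animals, and they do not give the time on diet, so p-values cover the spread between 3 arrays per group, which may be partly technical.

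Levels are log2(intensity + 1), and differences are lovastatin/ezetimibe minus cholesterol on that scale, with n = 3 arrays per group throughout. A gene is said to have risen or fallen where limma's moderated test gave a Benjamini-Hochberg adjusted p below 0.05 over all 19938 genes. Levels of different probe sets are not compared as amounts of RNA, since probes differ in affinity, and brightness serves only to mark low signal. The diet itself was visible in sterol synthesis: Sqle, the squalene epoxidase, had a mean level of 13.10 with lovastatin/ezetimibe and 7.60 with cholesterol. Of 10 measured hepatocyte markers, Alb among them, 0 passed limma's test, at a median difference of -0.01, while 2 had an unadjusted p below 0.05, 4 were called under an intensity trend and 3 by a cyberT-style test, which borrows variance from genes of similar intensity.

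With lovastatin/ezetimibe, 27 of the 40 measured interferon genes rose, 1 fell and 12 did not pass the test. Over all genes tested, 7.01% rose and 5.08% fell. The members' median difference was 0.31 (1.24-fold), beside -0.0049 for all genes, and it lay above 0 for 39 of 40, beside 48.3% of all genes. The changes were small: 7 members rose by at least 1.5-fold, a size that 1.58% of all genes reached, and 0 by 2-fold. They were Usp18, Oasl1, Rsad2, Irf7, Ifit1, Gbp3 and Ifit3. In 32 members every lovastatin/ezetimibe array lay above every cholesterol array, as in 15.9% of all genes, and in 1, Bst2, every one lay below, as in 14.7% of all genes. The other 7 overlapped between diets. The 95% intervals of the 12 that did not pass reached from -0.16 to 0.48 between them, so not passing does not show that they were unchanged. Of all genes called, 58.0% were higher. That share was 47.7% after quantile normalisation and 48.4% after centring on the median of the genes tested, and in either case 25 members rose and 1 fell. All 40 were among the 13292 brightest genes.

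**Figure D1:**
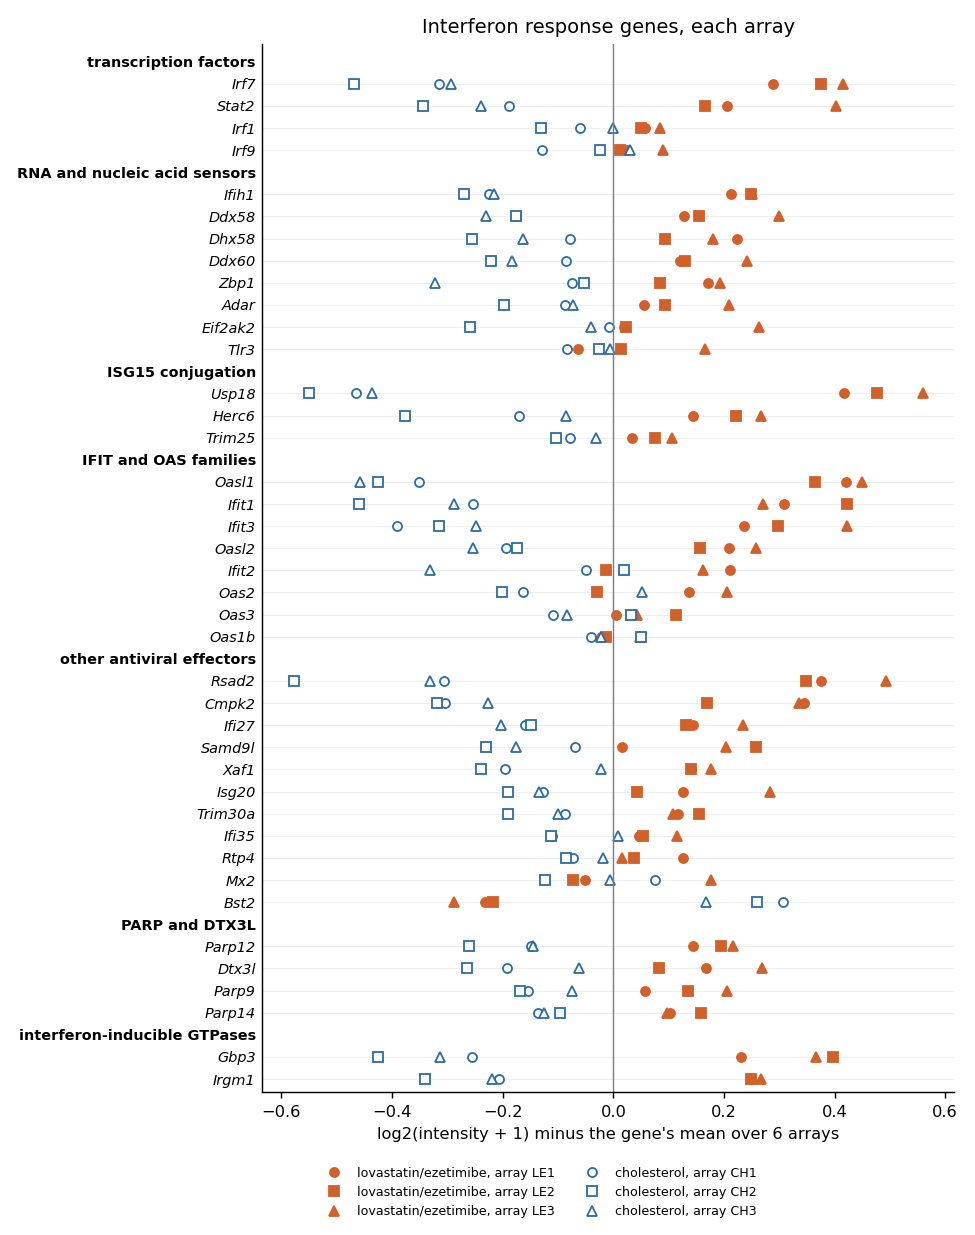
Level of each measured interferon response gene on each array, as log2(intensity + 1) minus that gene's mean over the 6 arrays, grouped by role. Filled orange symbols are lovastatin/ezetimibe arrays and open blue symbols cholesterol arrays, with circle, square and triangle for arrays 1, 2 and 3. The diets separate with lovastatin/ezetimibe higher in 32 genes, are reversed in Bst2 and overlap in 7.

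Among the transcription factors, Irf7 and Stat2 rose while Irf1 and Irf9 did not pass. Irf7, which drives the amplifying wave of type I interferon production, had levels of 10.27, 10.35 and 10.39 with lovastatin/ezetimibe and 9.66, 9.51 and 9.69 with cholesterol. The diets stood well apart, and the difference was 0.72 (SE 0.07, adjusted p = 3.17e-04). Stat2, the signal transducer particular to type I and type III interferon, was at 10.54, 10.50 and 10.74 with lovastatin/ezetimibe, against 10.14, 9.99 and 10.09 with cholesterol. Its difference was 0.52 (SE 0.08, adjusted p = 0.00394), and LE3 was the highest array. Irf9, the DNA-binding partner of Stat2, was at 9.52, 9.51 and 9.58 with lovastatin/ezetimibe and 9.36, 9.47 and 9.52 with cholesterol. These ranges overlapped, and the 95% interval of the difference ran from -0.05 to 0.22 (adjusted p = 0.443). Irf1, a factor best known for interferon gamma responses, was at 9.71, 9.70 and 9.73 with lovastatin/ezetimibe and 9.59, 9.52 and 9.65 with cholesterol. It did not overlap between diets, but its difference of 0.13 did not pass (interval 0.0059 to 0.25, adjusted p = 0.183). A second Irf1 probe set differed by 0.18.

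Of 8 sensors and effectors that recognise nucleic acid, 6 rose, with a median difference of 0.31 over all 8. Ifih1 encodes MDA5, a cytoplasmic sensor of long double-stranded RNA. Its levels were 10.05, 10.09 and 10.09 with lovastatin/ezetimibe and 9.61, 9.57 and 9.62 with cholesterol. The replicates lay close together within each diet, and the difference was 0.47 (SE 0.05, adjusted p = 4.92e-04). Ddx58 encodes RIG-I, which senses RNA with a free end phosphate. It was at 10.11, 10.14 and 10.28 with lovastatin/ezetimibe and 9.81, 9.81 and 9.75 with cholesterol, a difference of 0.39 (SE 0.06, adjusted p = 0.00489). Dhx58 encodes LGP2, the third helicase of that family. It stood at 8.98, 8.85 and 8.94 with lovastatin/ezetimibe and 8.68, 8.50 and 8.60 with cholesterol, and differed by 0.33 (SE 0.06). Thus all of the family's RNA helicase sensors were higher, without overlap between diets. The call of Dhx58 ended without LE3 (adjusted p = 0.0525, and 6.44e-04 to 0.0525 over all alternatives).

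Ddx60, a helicase reported to assist RIG-I, was at 7.56, 7.57 and 7.68 with lovastatin/ezetimibe and 7.35, 7.22 and 7.25 with cholesterol (difference 0.33, SE 0.06, adjusted p = 0.0109). Zbp1, a sensor of left-handed nucleic acid that can start necroptosis, and Adar, which edits adenosines in double-stranded RNA, lay just inside the threshold. Zbp1 was at 8.75, 8.66 and 8.77 with lovastatin/ezetimibe and 8.51, 8.53 and 8.26 with cholesterol (difference 0.30, adjusted p = 0.0491). Adar was at 8.86, 8.90 and 9.01 with lovastatin/ezetimibe and 8.72, 8.61 and 8.73 with cholesterol (difference 0.24, adjusted p = 0.0456). Neither gene overlapped between diets, but both calls ended when any 1 array was left out (adjusted p 0.00524 to 0.147 for Zbp1 and 0.00804 to 0.131 for Adar over all alternatives). Eif2ak2, the kinase PKR that halts translation on double-stranded RNA, differed by 0.20 without passing (interval -0.01 to 0.42). Tlr3, the endosomal receptor for double-stranded RNA, differed by 0.08 (interval -0.08 to 0.23).

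Usp18 changed the most of all 40 members. It removes the ubiquitin-like protein ISG15 from its targets and damps signalling at the type I interferon receptor. Its levels were 9.997, 10.06 and 10.14 with lovastatin/ezetimibe and 9.11, 9.03 and 9.14 with cholesterol. The gap between diets was several times the range within either, and the difference was 0.97 (SE 0.06, adjusted p = 3.43e-05). Herc6, which attaches ISG15 to proteins in mouse, was at 8.96, 9.04 and 9.09 with lovastatin/ezetimibe, against 8.65, 8.44 and 8.73 with cholesterol. CH2 was the lowest array, and the difference was 0.42 (SE 0.08, adjusted p = 0.0132). That call ended without LE2 or LE3 (adjusted p 1.96e-04 to 0.0606 over all alternatives). Trim25, a ubiquitin ligase that activates RIG-I, was at 10.30, 10.34 and 10.37 with lovastatin/ezetimibe and 10.19, 10.16 and 10.24 with cholesterol. It lay nearest outside the threshold (difference 0.14, interval 0.03 to 0.26, adjusted p = 0.115). It was called under an intensity trend and by a cyberT-style test (adjusted p 0.0237 to 0.279 over all alternatives).

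The IFIT and OAS families were divided. IFIT proteins bind RNA ends or each other to stop translation of viral RNA, and OAS proteins make a short oligoadenylate that activates RNase L. Ifit1 was at 8.95, 9.06 and 8.91 with lovastatin/ezetimibe and 8.39, 8.18 and 8.35 with cholesterol, a difference of 0.67 (SE 0.07, adjusted p = 7.54e-04). Ifit3, which forms complexes with other IFIT proteins, was at 9.38, 9.45 and 9.57 with lovastatin/ezetimibe and 8.76, 8.83 and 8.90 with cholesterol, a difference of 0.64 (SE 0.07, adjusted p = 6.58e-04). Neither gene overlapped between diets. Ifit2, the neighbour of Ifit3 on the chromosome, overlapped: it was at 7.40, 7.17 and 7.35 with lovastatin/ezetimibe and 7.14, 7.21 and 6.86 with cholesterol (difference 0.24, interval 0.0052 to 0.48, adjusted p = 0.192).

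Oasl1, which in mouse restrains translation of Irf7 messenger RNA, was at 9.68, 9.62 and 9.71 with lovastatin/ezetimibe and 8.91, 8.83 and 8.80 with cholesterol. It was the member with the second largest rise (0.82, SE 0.05, adjusted p = 4.69e-05). Oasl2, its neighbouring paralog, was at 8.46, 8.40 and 8.51 with lovastatin/ezetimibe and 8.05, 8.07 and 7.995 with cholesterol (difference 0.42, SE 0.05, adjusted p = 0.00169). The OAS genes proper did not pass. Oas2 differed by 0.21 (interval 0.0056 to 0.41) and Oas3 by 0.11 (interval -0.03 to 0.24), both with overlapping arrays. Oas1b, which carries a truncating mutation in most laboratory strains as background, had a difference of 0.0077 (interval -0.11 to 0.13), which was below 0 after quantile normalisation or centring on the genes tested. Members of these families share sequence, so signal from a close copy cannot be separated where probes match both.

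**Figure D2:**
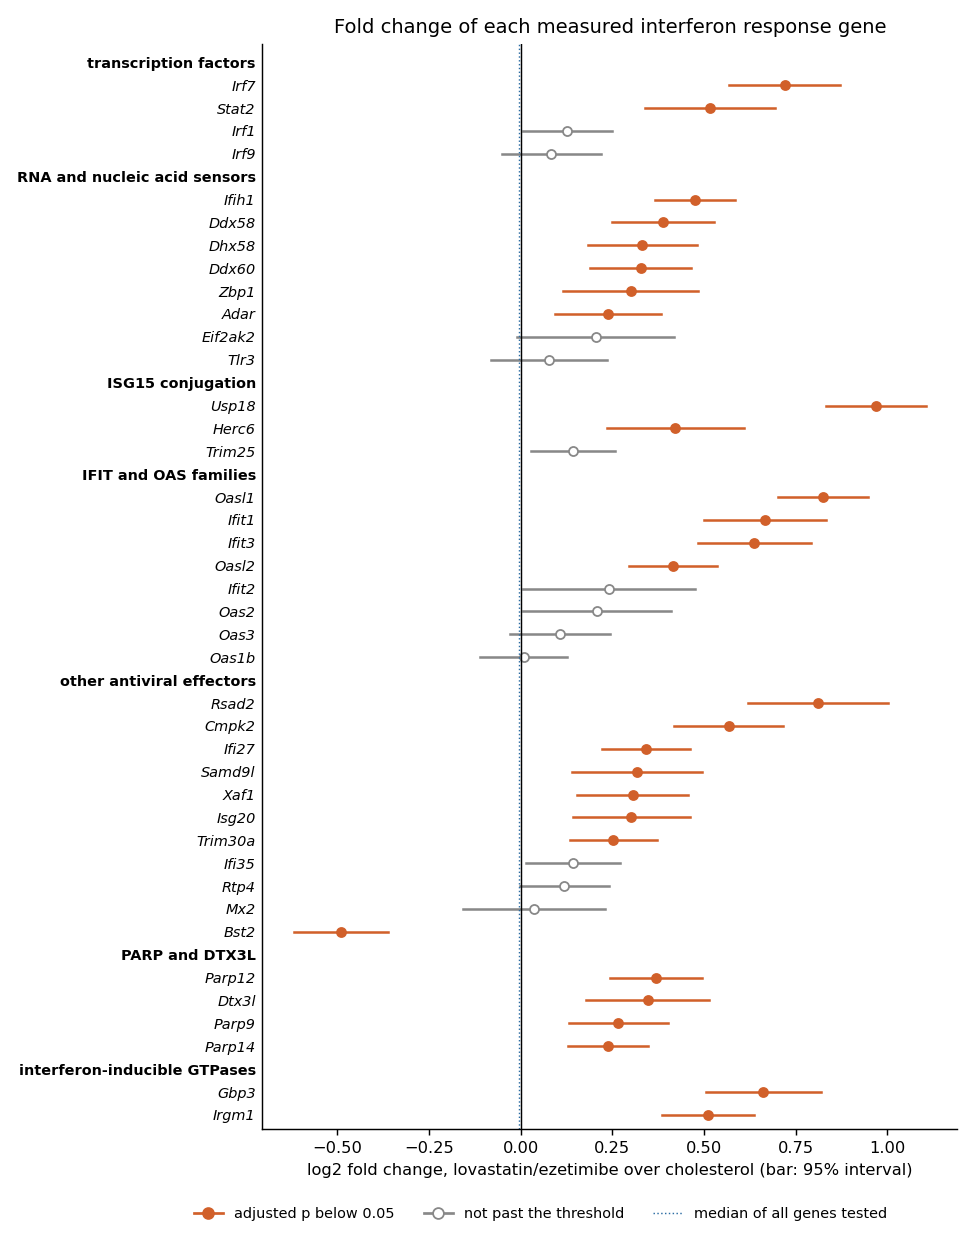
Difference of each measured interferon response gene, lovastatin/ezetimibe minus cholesterol, in log2 units, with its 95% interval from limma. Orange filled points passed at an adjusted p below 0.05 (27 above 0 and Bst2 below 0), grey open points did not pass, and the dotted line is the median of all genes tested, at -0.0049.

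Of 11 other measured antiviral effectors, 7 rose, Bst2 fell and 3 did not pass. Rsad2, or viperin, which makes a chain-terminating nucleotide, was at 9.02, 8.99 and 9.14 with lovastatin/ezetimibe and 8.34, 8.07 and 8.31 with cholesterol (difference 0.81, SE 0.08, adjusted p = 5.89e-04). Cmpk2, a nucleotide kinase encoded next to Rsad2, was at 8.62, 8.44 and 8.61 with lovastatin/ezetimibe and 7.97, 7.96 and 8.05 with cholesterol (difference 0.57, SE 0.06, adjusted p = 9.65e-04). Both genes of this neighbouring pair were separated between diets. Ifi27, a small hydrophobic protein, was at 11.01, 11.00 and 11.10 with lovastatin/ezetimibe and 10.71, 10.72 and 10.67 with cholesterol (difference 0.34, SE 0.05, adjusted p = 0.00439). Samd9l, an inhibitor of translation and growth, rose by 0.32, Xaf1, a promoter of apoptosis, by 0.31, the exonuclease Isg20 by 0.30 and Trim30a, an inhibitor of Toll-like receptor signalling, by 0.25.

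The last 4 had adjusted p-values of 0.0343, 0.0216, 0.0274 and 0.0170 and were less stable. The call of Samd9l ended without LE2, LE3, CH2 or CH3 and after quantile normalisation or centring on the genes tested, and that of Xaf1 without CH1, CH2 or any 1 lovastatin/ezetimibe array. Isg20 lost its call without LE1 or any 1 cholesterol array, and Trim30a without LE2 or CH2. Over all alternatives their highest adjusted p-values were 0.116 for Samd9l, 0.0827 for Xaf1, 0.0809 for Isg20 and 0.0673 for Trim30a, and the lowest were 0.00506, 0.00331, 0.00193 and 0.00262 in that order. Ifi35, the next member outside the threshold, was at 9.54, 9.55 and 9.61 with lovastatin/ezetimibe and 9.38, 9.38 and 9.502 with cholesterol (difference 0.14, interval 0.02 to 0.27, adjusted p = 0.155). Rtp4 differed by 0.12 (interval -0.0029 to 0.24). Neither passed, although their arrays did not overlap between diets. Mx2, a dynamin-like GTPase gene, overlapped between diets (0.04, interval -0.16 to 0.23).

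Bst2 went the other way. It encodes tetherin, a membrane protein that holds budding virus particles on the cell surface. Its levels were 10.19, 10.20 and 10.13 with lovastatin/ezetimibe, against 10.73, 10.68 and 10.59 with cholesterol. Every lovastatin/ezetimibe array was below every cholesterol array, and Bst2 fell by 0.49 (SE 0.06, adjusted p = 9.90e-04). The call held in all 16 alternatives, with adjusted p-values up to 0.00745. Bst2 is also a marker of plasmacytoid dendritic cells, which make type I interferon. The other 7 measured markers of that cell type, Siglech among them, did not pass, and their list median with Bst2 was 0.01.

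The poly(ADP-ribose) polymerase family members and their partner all rose, by a median of 0.31. Parp12, a zinc-finger ADP-ribosyltransferase, was at 11.09, 11.14 and 11.16 with lovastatin/ezetimibe and 10.80, 10.69 and 10.80 with cholesterol (difference 0.37, SE 0.05, adjusted p = 0.00372). Dtx3l, a ubiquitin ligase that pairs with Parp9, was at 10.22, 10.13 and 10.32 with lovastatin/ezetimibe and 9.86, 9.78 and 9.99 with cholesterol (difference 0.35, SE 0.07, adjusted p = 0.0196). Parp9 was at 9.80, 9.87 and 9.94 with lovastatin/ezetimibe and 9.58, 9.57 and 9.66 with cholesterol (difference 0.27, SE 0.06, adjusted p = 0.0230). Parp14 was at 9.46, 9.52 and 9.46 with lovastatin/ezetimibe and 9.22, 9.26 and 9.23 with cholesterol (difference 0.24, SE 0.05, adjusted p = 0.0153). Parp14, Dtx3l and Parp9 lie in a row along the chromosome, and all of them were separated between diets. The calls of Dtx3l (without LE1, LE3, CH1 or CH2), Parp9 (without LE2, LE3, CH1 or CH2) and Parp14 (without LE2, CH1 or CH3) ended when 1 array was left out. Their adjusted p-values reached 0.0690, 0.0874 and 0.0729 over all alternatives, from lows of 9.15e-05, 8.62e-04 and 0.00138.

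Both measured members grouped as interferon-inducible GTPases rose. These proteins attack the membranes around intracellular microbes and answer to interferon gamma as well as to type I interferon. Gbp3 was at 8.35, 8.51 and 8.48 with lovastatin/ezetimibe and 7.86, 7.69 and 7.80 with cholesterol (difference 0.66, SE 0.07, adjusted p = 5.95e-04). Irgm1, which also steers autophagy, was at 10.35, 10.35 and 10.37 with lovastatin/ezetimibe and 9.90, 9.76 and 9.89 with cholesterol (difference 0.51, SE 0.05, adjusted p = 7.01e-04). In both, the lovastatin/ezetimibe arrays stood clear of the cholesterol arrays.

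The arrays within a diet were not interchangeable across the members. LE3 was the highest lovastatin/ezetimibe array for 29 of 40 members, against 52.8% of all genes. CH2 was the lowest cholesterol array for 27 of 40, against 37.6% of all genes. The median deviation of the members from their own 6-array means was 0.14, 0.13 and 0.21 for LE1 to LE3 and -0.14, -0.20 and -0.14 for CH1 to CH3. Without LE3, LE2 or CH2 in turn, 19 members rose and 1 fell each time, with medians of 0.29, 0.34 and 0.29. Across every 1-array omission, 16 rises and the fall of Bst2 kept their call. The 16 were Usp18, Oasl1, Rsad2, Irf7, Ifit1, Gbp3, Ifit3, Cmpk2, Stat2, Irgm1, Ifih1, Oasl2, Ddx58, Parp12, Ifi27 and Ddx60.

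Upstream of these genes lie the interferon ligands. Of 16 measured ligand genes 0 passed limma's test, 1 had an unadjusted p below 0.05 and 0 were called by the cyberT-style test, with a median of -0.05. The probe sets of 10 ligand genes lay outside the 13292 brightest genes, so a low signal limits this reading. Ifnb1, the interferon beta gene, had a mean of 5.35 with lovastatin/ezetimibe and 5.34 with cholesterol (difference 0.0085, interval -0.16 to 0.17). Ifng, the interferon gamma gene, had a mean of 6.56 with lovastatin/ezetimibe and 6.73 with cholesterol (difference -0.17, interval -0.29 to -0.04, adjusted p = 0.0894), and it was called lower in 2 of 15 alternatives. The Ifna genes are close copies, and their probe sets may bind more than one.

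Of 6 receptor subunits 1 rose. Ifngr1, which binds interferon gamma, rose by 0.30 (SE 0.06, adjusted p = 0.0142), a call that ended without LE2 or CH1 (adjusted p 1.96e-04 to 0.0529 over all alternatives). The type I receptor subunits did not pass: Ifnar1 differed by 0.0020 (interval -0.13 to 0.14) and Ifnar2 by -0.06 (interval -0.19 to 0.08). Il10rb, shared with the type III receptor, differed by 0.20 (adjusted p = 0.0635). Among 15 kinases, STAT proteins and feedback inhibitors, 2 rose and 1 fell, with a median of 0.02. Beside the counts of these small lists, the share over all genes was 7.01% higher and 5.08% lower. Tyk2, the kinase bound to the type I receptor, rose by 0.29 (SE 0.05, adjusted p = 0.00971). Socs2, a feedback inhibitor of growth hormone signalling, fell by 1.13 (SE 0.07), and Cish, of the same family, rose by 0.49 (SE 0.08). Of 21 genes of sensing and signalling upstream of interferon, Toll-like receptors and nucleases among them, 3 rose and 1 fell, with a median of 0.01. Samhd1, which depletes nucleotides, rose by 0.38 (SE 0.05), Tlr8 by 0.33 (SE 0.06) and the adaptor Myd88 by 0.19 (SE 0.05). Rnaseh2c, a subunit of the ribonuclease that cleaves RNA from DNA hybrids, fell by 0.23 (SE 0.06). Myd88 and Rnaseh2c kept their calls in 8 and 9 of 16 alternatives, and lost them when any 1 array was left out (adjusted p up to 0.136 and 0.141).

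A further list of 44 measured interferon-stimulated genes outside the members held 10 that rose, 1 that fell and 33 that did not pass, at a median of 0.12. Of these, 6 lay outside the 13292 brightest genes, and the difference between this list and the members was not tested. The chemokine gene Cxcl10 rose by 0.85 (SE 0.08, adjusted p = 4.24e-04), Gbp7, of the GTPase family above, by 0.58 (SE 0.08), and Rnf213, a large ubiquitin ligase, by 0.48 (SE 0.05). Gbp4, Gbp5 and Iigp1, also interferon-inducible GTPases and named after their values were seen, did not pass. Their differences were 0.33, 0.18 and 0.05 (adjusted p = 0.0516, 0.167 and 0.679). Ifi205, of the DNA-sensor-like family, rose by 0.60 (SE 0.16, adjusted p = 0.0498), a call that ended without LE2, LE3, CH2 or CH3 and after quantile normalisation or either centring (adjusted p 0.00108 to 0.171 over all alternatives). The gene that fell was Ifitm2 (-0.24, adjusted p = 0.0212), named after its value was seen, and its call held only without LE2 among the 1-array omissions (adjusted p up to 0.0865). Genes best known as targets of interferon gamma rose in 7 of 21 cases with 0 lower, at a median of 0.12. The antigen presentation genes Cd74 (0.51, SE 0.06), Tapbp (0.50, SE 0.05) and H2-Ab1 (0.48, SE 0.06) and the chemokine gene Cxcl9 (0.49, SE 0.06) changed the most. This list shares Gbp5 and Iigp1 with the further list, and Socs1 with that of kinases, STAT proteins and feedback inhibitors. Targets of NF-kB, the other main inflammatory factor, rose in 6 of 18 cases and fell in 1, again at a median of 0.12. They included the adhesion molecule genes Vcam1 (0.54, SE 0.05) and Icam1 (0.34, SE 0.06), the cytokine gene Il1b (0.50, SE 0.08) and Birc3 (0.34, SE 0.07), an inhibitor of cell death. The gene that fell was Nfkbia (-0.25, adjusted p = 0.0484), also named after its value was seen, and its call held only without LE3 among those omissions (adjusted p up to 0.156). Birc3 lost its call without any 1 lovastatin/ezetimibe array (adjusted p up to 0.0623).

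**Figure D3:**
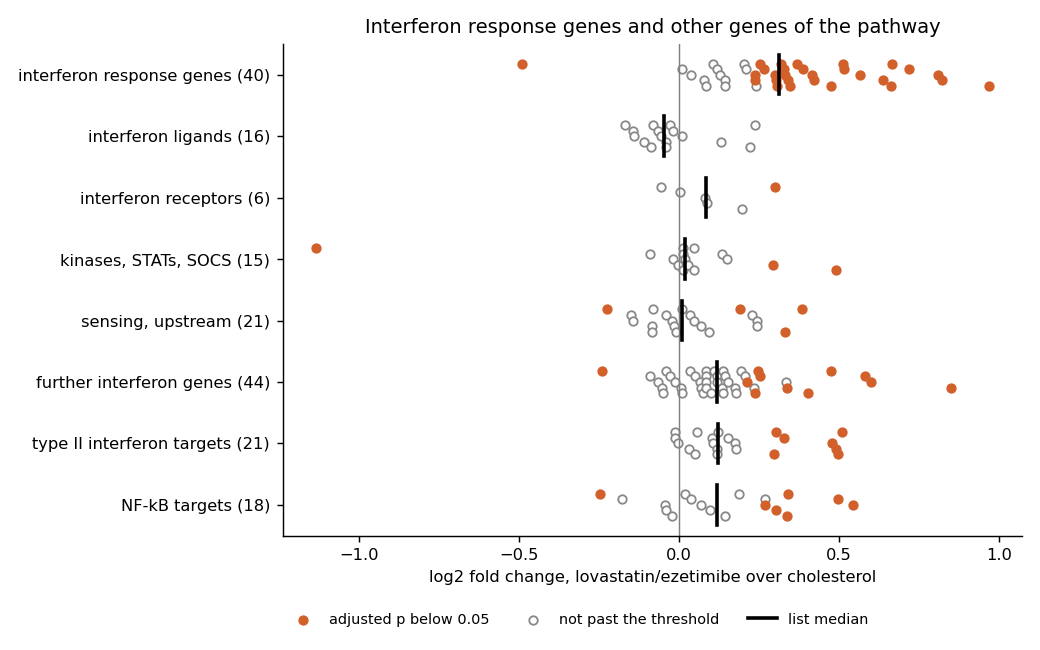
Difference between diets (log2, lovastatin/ezetimibe minus cholesterol) for each gene of the interferon response and of lists of the surrounding pathway, with the number measured in brackets. Orange points passed at an adjusted p below 0.05, open points did not, and black bars are medians. The response genes have a median of 0.31, the ligands -0.05 and the further interferon-stimulated genes 0.12.

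Markers of other cells in the liver were read beside these genes, because whole-liver RNA cannot tell more cells of a type from more RNA per cell. Kupffer cell and macrophage markers rose in 12 of 14 cases with 0 lower, at a median of 0.37. Their summed log2 level was 134.54, 134.70 and 135.30 with lovastatin/ezetimibe and 130.30, 129.49 and 129.96 with cholesterol, so the diets did not overlap. Cd68 (0.55, SE 0.05), Cd163 (0.50, SE 0.07), Lyz2 (0.48, SE 0.05) and C1qb (0.47, SE 0.05) changed the most, and all 14 were among the 13292 brightest genes. The part of macrophages in the change of the interferon genes was not tested. Markers of conventional dendritic cells (0 of 8), T and NK cells (0 of 13) and neutrophils (0 of 10) did not pass limma's test, with 1, 2 and 2 at an unadjusted p below 0.05 and 0 in each list called by the cyberT-style test. After quantile normalisation 1 T and NK cell marker and 1 neutrophil marker were called lower. Low signal limits these lists too, with 4, 7 and 6 markers outside the 13292 brightest genes. Of 8 B and plasma cell markers, Mzb1 rose by 0.30 and Pax5 fell by 0.25. Mzb1 lost its call when any 1 array was left out and Pax5 without any 1 array but LE3 (adjusted p up to 0.126 and 0.1004).

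Sinusoidal endothelial markers passed in 0 of 10 cases, with 4 at an unadjusted p below 0.05, 1 called by the cyberT-style test, 3 under an intensity trend and 3 lower after quantile normalisation. Of 10 stellate cell markers 1 fell, the collagen gene Col3a1 (-0.19, SE 0.05), whose call ended when any 1 array was left out (adjusted p up to 0.147). Cholangiocyte markers passed in 0 of 5 cases, with 1 at an unadjusted p below 0.05, 0 called by the cyberT-style test and 1 under an intensity trend. The median difference was -0.04 for endothelial, 0.01 for stellate and -0.03 for cholangiocyte markers.

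**Figure D4:**
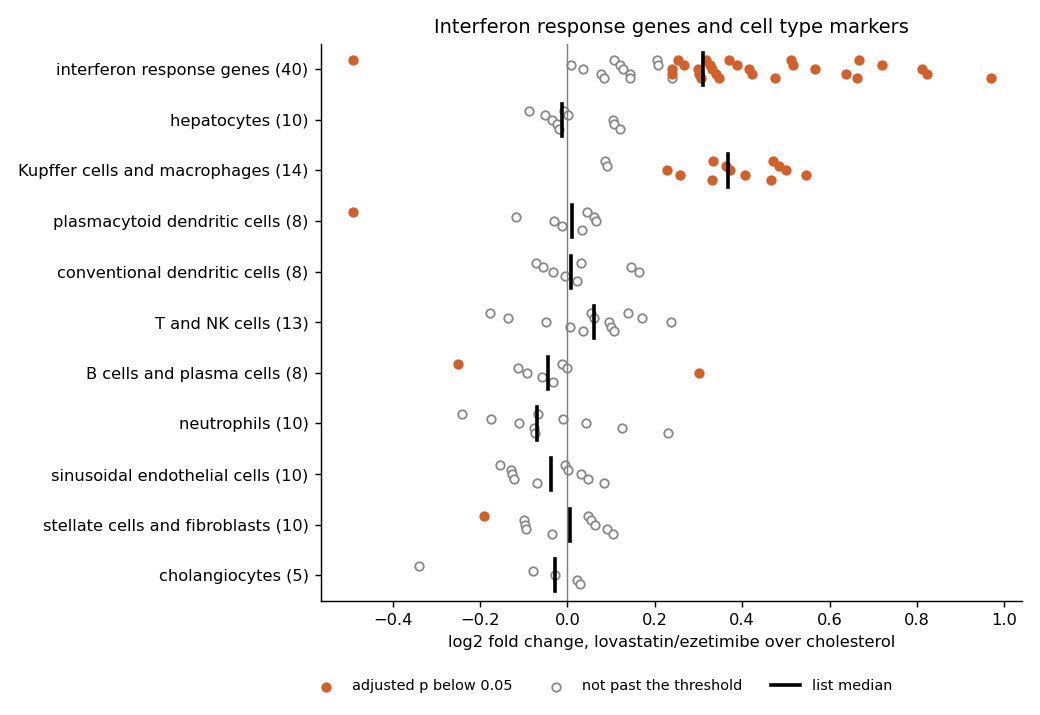
Difference between diets (log2, lovastatin/ezetimibe minus cholesterol) for each interferon response gene and for markers of liver cell types, with the number measured in brackets. Orange points passed at an adjusted p below 0.05, open points did not, and black bars are medians. Kupffer cell and macrophage markers have a median of 0.37, hepatocyte markers of -0.01.

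Promoter sequences were then searched for the ISRE, the element through which interferon switches on such genes. The choice by name is therefore not independent of it. RefSeq windows of build GRCm38.p6, from 250 bases before to 50 after a transcription start, were found for 34 of the 44 listed genes. The ISRE core, GAAA and GAAA with any 2 bases between them, was searched on both strands, as was the gamma-activated site (GAS) TTCNNNGAA, which reads the same on both. The ISRE letters were in a window of 16 of 34 listed genes (47.1%), against 3.99% of all 27025 genes with a window. The GAS letters were in 8 of 34 (23.5%), against 9.55% of all genes, and 3 listed genes held both. The share describes a list of known interferon genes, and no test was made of it.

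The windows below are those of the 4 measured genes with ISRE letters and the largest rise, of Oasl1, the gene with the largest change among those whose window holds no match, and of Bst2, added after its fall was seen. Each reads 5′ to 3′ on the gene's strand, with ISRE matches in capitals.
Rsad2, chr12:26456403-26456702, minus strand: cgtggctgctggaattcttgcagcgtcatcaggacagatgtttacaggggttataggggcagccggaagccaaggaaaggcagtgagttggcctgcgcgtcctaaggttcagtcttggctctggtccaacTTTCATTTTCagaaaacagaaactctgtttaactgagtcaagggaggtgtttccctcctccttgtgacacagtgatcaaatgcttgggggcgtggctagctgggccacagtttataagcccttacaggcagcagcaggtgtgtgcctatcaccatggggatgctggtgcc
Ifit1, chr19:34640639-34640938, plus strand: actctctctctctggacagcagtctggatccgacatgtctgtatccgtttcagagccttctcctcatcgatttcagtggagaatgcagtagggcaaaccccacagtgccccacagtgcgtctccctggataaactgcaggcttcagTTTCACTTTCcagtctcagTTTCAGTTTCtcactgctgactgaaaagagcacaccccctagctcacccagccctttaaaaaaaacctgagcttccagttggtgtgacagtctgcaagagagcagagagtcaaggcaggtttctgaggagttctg
Gbp3, chr3:142559794-142560093, plus strand: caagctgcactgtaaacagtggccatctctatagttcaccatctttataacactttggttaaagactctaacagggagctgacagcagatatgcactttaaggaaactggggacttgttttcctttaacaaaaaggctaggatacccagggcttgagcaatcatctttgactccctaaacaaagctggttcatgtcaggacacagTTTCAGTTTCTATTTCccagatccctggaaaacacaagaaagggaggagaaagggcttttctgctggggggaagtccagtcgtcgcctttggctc
Ifit3, chr19:34583279-34583578, plus strand: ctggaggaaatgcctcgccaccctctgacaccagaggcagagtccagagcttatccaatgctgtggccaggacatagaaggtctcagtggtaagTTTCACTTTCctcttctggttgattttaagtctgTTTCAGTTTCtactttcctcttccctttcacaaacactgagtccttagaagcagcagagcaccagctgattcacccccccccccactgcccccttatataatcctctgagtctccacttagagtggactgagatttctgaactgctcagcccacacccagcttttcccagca
Oasl1, chr5:114922990-114923289, plus strand: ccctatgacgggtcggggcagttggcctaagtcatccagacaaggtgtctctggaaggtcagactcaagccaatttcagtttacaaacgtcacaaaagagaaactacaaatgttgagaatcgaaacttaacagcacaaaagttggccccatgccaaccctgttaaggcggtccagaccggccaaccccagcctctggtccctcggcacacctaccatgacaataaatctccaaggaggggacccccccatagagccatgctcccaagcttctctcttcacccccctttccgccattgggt
Bst2, chr8:71537423-71537722, minus strand: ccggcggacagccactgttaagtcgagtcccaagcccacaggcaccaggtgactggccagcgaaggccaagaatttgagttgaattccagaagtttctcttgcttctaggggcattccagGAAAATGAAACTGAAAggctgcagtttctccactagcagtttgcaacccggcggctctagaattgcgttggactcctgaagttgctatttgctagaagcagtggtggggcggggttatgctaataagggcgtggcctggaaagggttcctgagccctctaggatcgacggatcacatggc

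In Ifit1 and Ifit3 the element appears as separate copies, which begin 104 and 85 bases before the start in Ifit1 and 156 and 122 bases before it in Ifit3. Both genes show the same pair of letter strings in the same order, TTTCACTTTC and then TTTCAGTTTC. Rsad2 has 1 copy, which begins 120 bases before the start. The matches in Gbp3 overlap each other, and they begin 45 and 39 bases before the start. Bst2 has overlapping copies on the other strand, from 130 and 124 bases before the start, and a GAS match that overlaps the first of them. Thus the promoter of the falling gene held the same ISRE core as those of Ifit1, Ifit3, Rsad2 and Gbp3, which rose. The Oasl1 window holds none, which says only that these letters are not in this stretch.

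Among 30 measured genes with a window, the 13 with ISRE letters had a median difference of 0.47, with 10 higher and 1 lower. The 17 without them had a median of 0.31, with 11 higher and 0 lower. Their ranges were -0.49 to 0.81 with the letters and 0.08 to 0.82 without, so the groups overlapped widely. Genes with GAS letters (7) had a median of 0.20, with 2 higher and 1 lower, beside 0.42 for the 23 without, of which 19 were higher. Irf1, Ifit2, Ifi35, Eif2ak2, Adar, Isg20 and Bst2 were the measured genes with GAS letters.

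**Figure D5:**
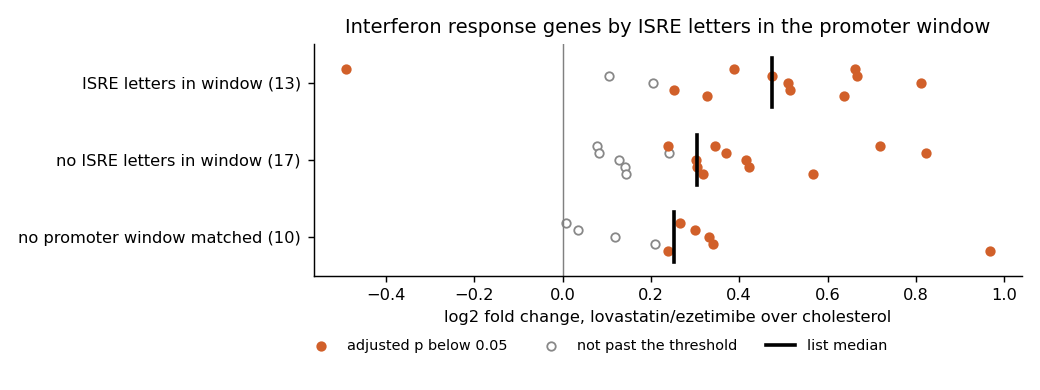
Difference between diets (log2, lovastatin/ezetimibe minus cholesterol) for the 40 measured genes, split by whether a RefSeq promoter window holds the ISRE letters (13), does not (17) or was not matched (10). Orange points passed at an adjusted p below 0.05, open points did not, and black bars are medians, which are 0.47 with the letters and 0.31 without.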

How the data were processed

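The authors deposited linear probe set intensities for 6 arrays, whose background correction, normalisation and summary method were not given in the sources used here. Per the labels' design text, Partek and cyberT were used for differential expression. Array medians of 158 to 163 do not show whether arrays were scaled to each other. Of 35556 probe sets, 21789 were annotated to 1 gene, 1621 to several and 12146 to none, and 21698 of the first matched RefSeq gene identifiers. Values were taken as log2(intensity + 1) and fitted with limma 3.58.1 (lmFit, eBayes) in R 4.3.3, two-sided, over 19938 genes. The fits were tested on simulated data. An exact permutation test of 3 against 3 arrays cannot go below 0.1. The number of arrays limits the precision.

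The members and lists were chosen with earlier results of these data known. All members may be named, and of each other list up to 4 called genes with the largest change, or 2 with the smallest p where none was called, while any ligand or receptor may be named. Siglech, Alb, Ifitm2, Nfkbia, Gbp4, Gbp5, Iigp1 and Socs1 fall outside that rule. Alternatives tried were the replicate number as a block, quantile normalisation, median centring, no dim genes, the mean of probe sets, an intensity trend with robust prior, a test in the manner of cyberT, pseudocounts of 16 and none, and leaving out each array. Centring on the median of the genes tested was added after seeing the data. Outdated symbols in the gene lists were replaced by Sting1 and Cgas, while no symbol of the probe set annotation was changed. At most 28 probe sets were identical between arrays. Tables and plots used Python 3.11.15, pandas 2.3.3 and matplotlib 3.10.9.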

Additional observations from a re-analysis of the deposited data

How the results depend on the processing

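The number of members that rose was 19 to 22 when 1 array was left out and 23 to 28 under the other alternatives, and the number that fell was 1 in all of them. Their median difference was 0.29 to 0.34 without 1 array and 0.28 to 0.31 otherwise. Same-numbered arrays deviated together only weakly (correlations of -0.02, -0.10 and 0.16). These correlations cannot show whether the replicate number marks a pairing, which was not tested. With that number as a block 23 members rose, and Zbp1, Adar, Samd9l and Trim30a were no longer called. Single members kept direction and call in 581 recalculations, lost the call in 50, gained it in 2 and changed sign in 7. The sign changes of members were of genes near 0 that were not called. Oas1b was -0.012 after quantile normalisation and -0.018 after centring on the genes tested, and -0.014 to 0.035 without 1 array. Mx2 was -0.044 to 0.082 without 1 array. Among the named genes outside the members, the sign changed in 10 recalculations. Ifnar1 was -0.033 after quantile normalisation, -0.024 after centring on the genes tested and -0.046 to 0.026 without 1 array. Ifnb1 was -0.017 after that centring and -0.033 to 0.061 without 1 array. Over all genes, 1398 rose and 1012 fell. The number that fell was 657 with the replicate block, 1598 after quantile normalisation, 1560 with the intensity trend and 525 to 893 without 1 array, and the number that rose 938 to 1126 without 1 array and 1961 with the trend. The causes were not tested. Among the 13292 brightest genes alone 1797 rose. Low signal limits the ligand genes, and shared probe sets leave Isg15, Gbp2 and Igtp without values.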
